A study of Saccharomyces cerevisiae with 8 samples.

Results

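The 44 genes described here encode the DNA replication machinery of budding yeast, Saccharomyces cerevisiae, and its 4 ribonucleotide reductase subunits. They were taken from a named list by matching the systematic ID of each gene to the rows of the deposited expression table, and all 44 were found among its 7126 rows. By role they were 6 subunits of the origin recognition complex, 8 genes for the replicative helicase and its loading, 9 for helicase activation, 6 for polymerases and primase, 11 for the clamp, its loader, single-strand binding and the lagging strand, and 4 for ribonucleotide reductase.

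RNA of 8 libraries was sequenced from strains of the BY4741 background, a haploid laboratory strain, that carried an edited GCR1 gene. Gcr1 is the activator of glycolytic transcription. The labels give strain U (JHY9100, GCR1 (∆1-574)) the form Gcr1(U) and strain S (JHY9200, GCR1 (∆4-742)) the form Gcr1(S), and tie the forms to the processing of the GCR1 intron. Each form was represented by 1 strain, and no unedited strain was analysed here. The 4 groups were U and S at 6 h, in exponential growth, and U and S at 12 h, past the diauxic shift, when glucose has been used up and cells turn to ethanol, with 2 libraries in each. All cultures had 10 mL of YPD with 2% glucose in a 50 mL flask, started at an OD600 of 0.5 and shaken at 170 rpm and 30 °C without further treatment. Whether the libraries of 1 group were grown as separate cultures is not in the labels, so p-values measure the spread between these libraries, which may be technical.

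Values are FPKM, fragments scaled to gene length and to the mapped fragments of the library, so levels can be compared between genes per length. Summed over all rows, a library held 1504396 to 1548312 FPKM, and the read depth behind it is unknown. All 44 genes averaged at least 1 FPKM, the minimum for testing, and none was listed at 0 in any library. LEU2, MET15 and URA3, which the BY4741 background lacks, were listed at 0 in all 8 libraries, while HIS3, of which that background carries a partial deletion, stood at 68.8 to 283 FPKM. The replicates of a group stood apart at 6 h: 19 of 19 targets of the heat shock factor were higher in replicate 1 in both strains, with a median difference of 2.33 for U and 2.46 for S on the log2 scale. At 12 h 13 of the 19 were higher in replicate 1 in both strains, with median differences of 0.30 and 0.20. Their summed level was 17415 and 4488 FPKM in replicates 1 and 2 of U at 6 h, 16296 and 4295 in S at 6 h, 41806 and 33476 in U at 12 h and 43722 and 33209 in S at 12 h. Their part in the results was not tested, and counts without both 6 h libraries of number 1 are given beside the main counts.

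Replication begins when the origin recognition complex, with Cdc6, loads the ring of Mcm2 to Mcm7 onto origins in G1. Cyclin-dependent kinase with Clb5 or Clb6 then lets Cdc45 and the GINS complex join the ring at the start of S phase, and polymerases follow, held to DNA by the clamp PCNA. Ribonucleotide reductase makes the deoxynucleotides, from 2 kinds of subunit, a large catalytic one and a small one that carries the radical. Many of these genes are known to be transcribed in late G1 by MBF, a factor of Mbp1 and Swi6 that binds the MCB box, ACGCGT. In bulk RNA, a lower level in every cell and fewer cells in the phase that makes the transcript cannot be told apart.

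The MCB box was looked for in the 500 bases before the start codon of each gene in the RefSeq R64 genome, the build that the files use under the name sacCer3. It reads the same on both strands, and 19 of the 44 genes (43.2%) held it, beside 326 of 6006 promoters of the genome (5.4%). The SCB motif CGCGAAA, bound by SBF, was present on either strand for 5 of 44 (11.4%, against 5.8% of all promoters). The stress element CCCCT, bound by Msn2 and Msn4, was present on either strand for 13 of 44 (29.5%, against 34.1%). The stretches that hold the boxes are shown for the 5 genes that had a box and changed between the times, and for the 6 that had 2 boxes and did not pass the test. Capitals mark ACGCGT, and all other bases are in lower case, read 5′ to 3′ on the strand of the gene.
RNR1: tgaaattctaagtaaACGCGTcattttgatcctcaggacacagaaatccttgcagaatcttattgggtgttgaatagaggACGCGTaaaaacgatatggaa
RNR3: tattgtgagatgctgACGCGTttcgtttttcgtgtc
POL30: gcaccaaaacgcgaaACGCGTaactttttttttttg
RAD27: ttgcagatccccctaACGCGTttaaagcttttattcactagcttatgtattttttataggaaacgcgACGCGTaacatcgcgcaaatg
RFC4: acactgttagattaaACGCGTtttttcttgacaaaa
POL1: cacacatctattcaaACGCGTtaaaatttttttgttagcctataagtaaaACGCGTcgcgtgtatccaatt
RFA1: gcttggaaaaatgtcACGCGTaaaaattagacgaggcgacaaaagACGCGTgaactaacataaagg
CDC45: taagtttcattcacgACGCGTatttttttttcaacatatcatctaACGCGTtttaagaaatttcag
CLB6: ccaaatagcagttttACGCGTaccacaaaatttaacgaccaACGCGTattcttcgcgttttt
POL12: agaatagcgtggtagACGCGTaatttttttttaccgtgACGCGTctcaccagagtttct
RFA2: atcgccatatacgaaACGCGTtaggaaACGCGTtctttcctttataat

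These stretches lie at chrV:298564-298664 (plus strand) for RNR1, chrIX:240875-240910 (minus) for RNR3, chrII:425941-425976 (minus) for POL30, chrXI:225983-226070 (minus) for RAD27 and chrXV:142671-142706 (minus) for RFC4. The others lie at chrXIV:429864-429934 (plus) for POL1, chrI:158734-158799 (minus) for RFA1, chrXII:346071-346136 (minus) for CDC45, chrVII:706858-706919 (minus) for CLB6, chrII:153789-153847 (minus) for POL12 and chrXIV:48152-48199 (plus) for RFA2. All lie outside the annotated genes. RNR1 had 4 boxes in its 500 bases, of which 2 are shown. In POL30 the SCB motif overlaps the MCB box.

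The comparisons of 12 h with 6 h ask how the replication transcripts of each strain differed before and after the diauxic shift. In both strains RNR1, the large subunit of ribonucleotide reductase, and POL30, which encodes PCNA, had the lowest log2 fold changes of the 44 genes, while RNR3, the alternative large subunit known to be induced by DNA damage, rose. Between these extremes a set of clamp loader and origin recognition genes fell by less than 1 on the log2 scale. The helicase ring apart from MCM6, the GINS complex, the polymerases apart from PRI1 and the single-strand binding protein did not pass the test in the main fit.

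Of the 44 genes, 12 passed the test in U (11 fell and 1 rose) and 14 in S (13 fell and 1 rose), by limma at an adjusted p under 0.05, where 55.3% and 56.1% of all rows passed. Those that fell were 25.0% of the genes in U, where 21.7% of the 6339 rows tested fell, and 29.5% in S, where 22.9% fell. Those that rose were 2.27% in each strain, where 33.5% of all rows rose in U and 33.2% in S. The 11 genes that fell in U were 100% of the U list and 84.6% of the S list, and RNR3 was the gene that rose in both. The lists are not independent, since both come from 1 fit in which the strains share the spread of a gene. Same-numbered libraries of U and S also deviated together over the 44 genes (r = 0.92 at 6 h and 0.79 at 12 h). ORC1 and ORC5 passed the test in S alone, but limma called no difference between the strains in their time changes. The differences were -0.19 (95% interval -0.73 to 0.36) for ORC1 and -0.05 (-0.78 to 0.68) for ORC5, too wide to show equal changes. The libraries of the 2 times did not overlap for 30 of 44 genes in U (68.2%, against 81.1% of all rows) and 26 in S (59.1%, against 79.9%).

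**Figure D1:**
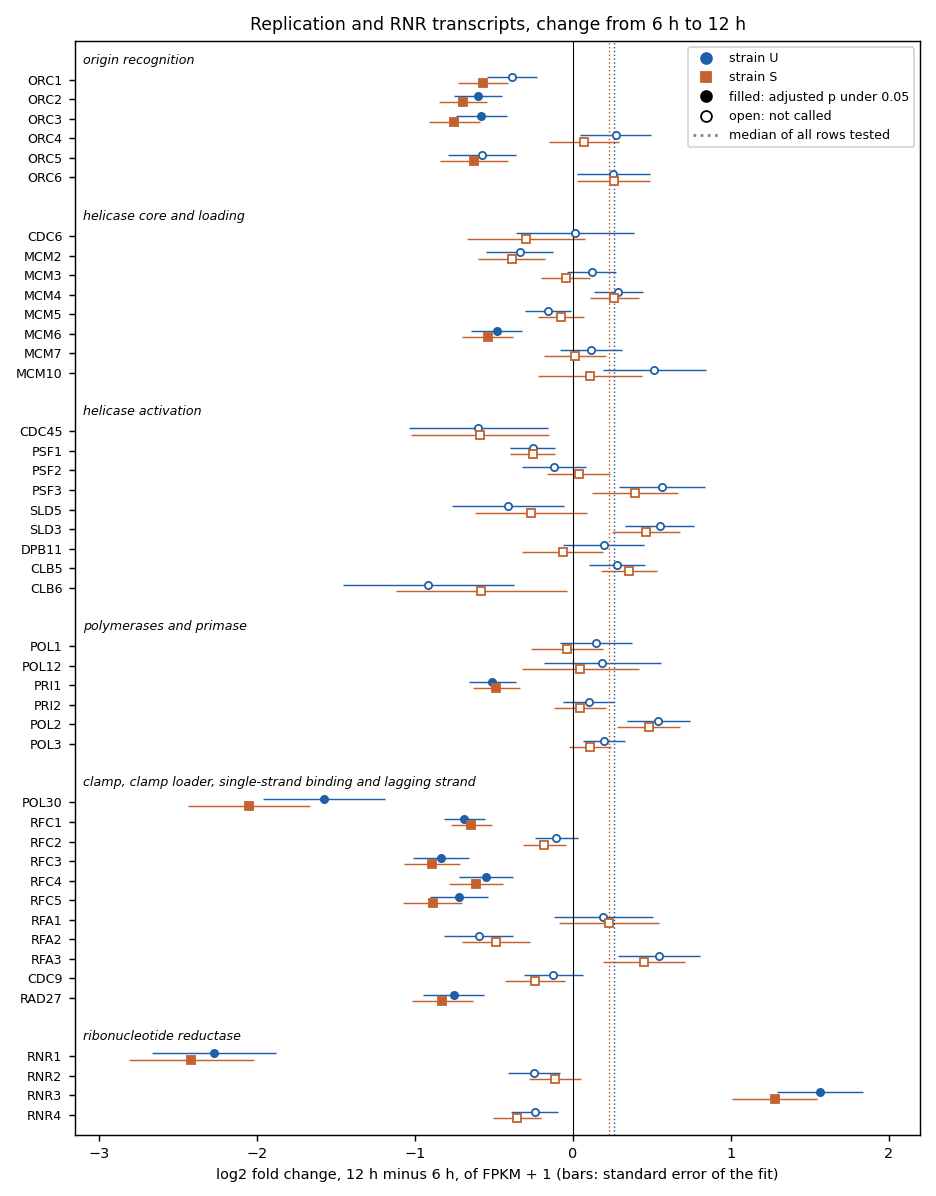
Log2 fold change from 6 h to 12 h, on the log2(FPKM + 1) scale, of each of the 44 genes by role, in strain U (circles) and strain S (squares). Bars are standard errors, filled symbols passed the test, and dotted lines mark the median of all rows tested (0.26 in U and 0.23 in S); RNR1 and POL30 lie farthest to the left and RNR3 alone passed the test to the right.

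The median log2 fold change of the 44 genes was -0.14 in U and -0.21 in S, where that of all rows tested was 0.26 and 0.23. With median-of-ratios scaling the median of all rows was 0.02 in both strains and that of the 44 genes -0.38 and -0.42. The distance of the 44 genes from all rows was thus -0.401 for U and -0.442 for S as deposited, and -0.405 and -0.444 after that scaling. In U 35 of the 44 genes lay below the median of all rows, and 36 in S. The counts of genes that fell moved with the scaling, to 18 in U and 17 in S after median-of-ratios scaling (27.9% and 28.1% of all rows) and to 20 and 17 after quantile normalization (29.4% and 29.3% of all rows). The same scalings took the share of all rows that rose to 26.3% and 26.1% in U and to 26.8% and 26.4% in S.

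The counts moved when single libraries were left out. A fit without 1 library leaves 1 in its group, and shares of all rows under the settings below are not given. The drops are therefore not read as particular to these genes. In U 12 genes had passed; 5 passed when U 6 h replicate 1 was left out, 5 without U 6 h replicate 2 and 3 when U 12 h replicate 1 was left out, where RNR1, RNR3 and RFC1 were left. In S 14 had passed, and the count was 9 without S 6 h replicate 2 and 5 when S 12 h replicate 1 was left out. Without both 6 h libraries of number 1, a setting chosen after seeing the data, 9 passed in U and 11 in S, of which 7 and 8 were among the genes of the main counts. When the fit held the compared groups alone, 8 passed in each strain, and the calls lost were those of ORC3, MCM6, PRI1 and RFC4 in U and of ORC1, ORC2, ORC5, MCM6, PRI1 and RFC4 in S.

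Ribonucleotide reductase showed the widest range of all the roles. RNR1 (YER070W, chrV:298950-301616) stood at 130 and 152 FPKM in the U libraries at 6 h, at 125 and 131 in S at 6 h, at 19.3 and 41.5 in U at 12 h and at 17.5 and 30.7 in S at 12 h. Every 12 h library was below every 6 h library, and at 12 h replicate 2 was the higher in both strains. Its log2 fold change was -2.27 in U (SE 0.394, limma adjusted p = 0.00405) and -2.41 in S (SE 0.394, limma adjusted p = 0.0032). RNR1 kept its call in all 8 fits that left out 1 library, with values from -2.80 to -1.74 in U and from -2.80 to -2.03 in S.

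RNR3 (YIL066C, chrIX:238099-240708) stood at 3.45 and 2.63 FPKM in U and 4.49 and 2.59 in S at 6 h, and at 10.9 and 10.8 in U and 9.60 and 9.94 in S at 12 h. The 12 h libraries were all above the 6 h libraries, at a level that stayed low beside the other 3 genes. Its log2 fold change was 1.56 in U (SE 0.271, limma adjusted p = 0.004) and 1.28 in S (SE 0.271, limma adjusted p = 0.00835), on a scale with 1 FPKM added that understates changes at this level. Both calls held in the 8 fits that left out 1 library, and the call in S was lost with quantile normalization (0.68, limma adjusted p = 0.0536).

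The small subunits moved little. RNR2 (YJL026W) stood at 248 and 257 FPKM in U and 253 and 262 in S at 6 h, and at 187 and 242 in U and 237 and 239 in S at 12 h. All 12 h libraries lay below those of 6 h, by less than the spread the test allows for: the log2 fold changes were -0.25 in U and -0.11 in S (limma adjusted p = 0.241 and 0.59). RNR4 (YGR180C), which encodes the other small subunit, had the highest mean level of the 44 genes over the 8 libraries. Its levels were 687 and 727 FPKM in U and 764 and 770 in S at 6 h, and 551 and 648 in U and 589 and 611 in S at 12 h. The log2 fold changes of -0.24 and -0.35 did not pass the test (limma adjusted p = 0.213 and 0.0873). After median-of-ratios scaling RNR4 fell in both strains (-0.49 and -0.57) and RNR2 in U (-0.50). Relative to the median of all rows, RNR2 stood at -0.509 in U and -0.343 in S, and RNR4 at -0.503 and -0.586. A second row carries the name RNR2, YJL026C-A, an ID that RefSeq R64 does not annotate, so a split of reads between these rows is uncertain.

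**Figure D2:**
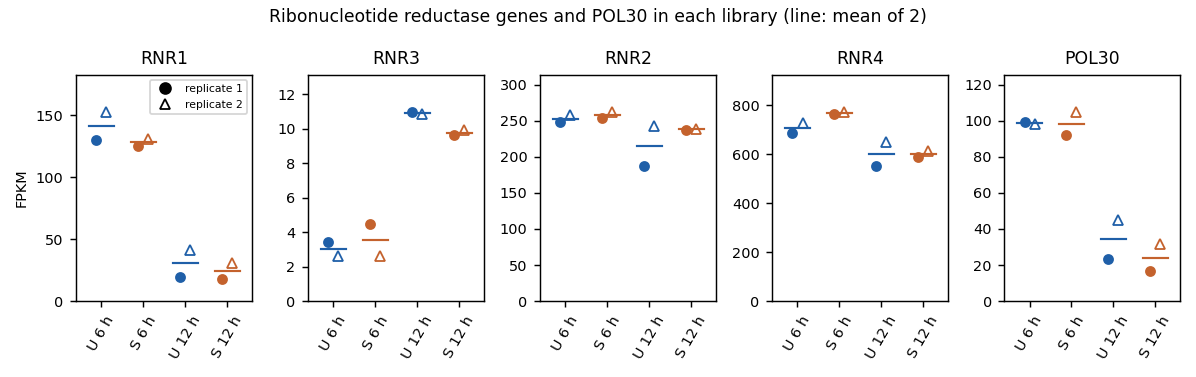
FPKM of the 4 ribonucleotide reductase genes and POL30 in each library, each gene on its own axis from 0, with circles for replicate 1, triangles for replicate 2 and lines for the mean of 2 libraries. RNR1 falls from 125 to 152 FPKM at 6 h to 17.5 to 41.5 at 12 h, RNR3 rises from 2.59 to 4.49 to 9.60 to 10.9, and RNR2 and RNR4 change less.

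The ratios of these transcripts within a library do not depend on the scaling between libraries. RNR3 made up 2.59% and 1.70% of the large-subunit FPKM (RNR1 and RNR3 together) in U at 6 h and 3.47% and 1.94% in S at 6 h. At 12 h it made up 36.2% and 20.7% in U and 35.5% and 24.5% in S. The group values were 2.15% ± 0.632 and 2.71% ± 1.08 at 6 h and 28.5% ± 10.9 and 30.0% ± 7.76 at 12 h for U and S (SD, n = 2 each). The times did not overlap, and at both times replicate 1 held the higher share in both strains. Large-subunit FPKM as a percentage of small-subunit FPKM (RNR2 and RNR4 together) was 14.2 and 15.7 in U and 12.7 and 13.0 in S at 6 h, and 4.10 and 5.87 in U and 3.28 and 4.78 in S at 12 h. The second row named RNR2, YJL026C-A, at 281 to 490 FPKM, is not in this sum. How reads were divided between the rows is unknown, so the level of this percentage is uncertain. RNR1 and RNR3 shared 76.2% of their aligned coding bases, with no identical stretch longer than 38 bases, so reads of 100 bases differ between them.

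**Figure D3:**
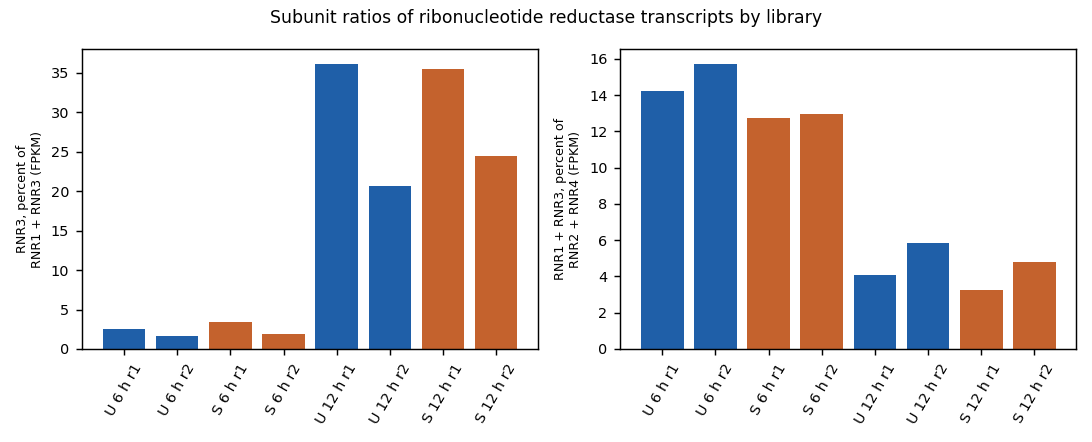
Left, RNR3 as a percentage of the summed FPKM of RNR1 and RNR3 in each library. Right, the sum of RNR1 and RNR3 as a percentage of the sum of RNR2 and RNR4, without the second row named RNR2. Bars start at 0, with U in blue and S in orange: the RNR3 share is 1.70% to 3.47% at 6 h and 20.7% to 36.2% at 12 h, and the large-to-small percentage is 12.7 to 15.7 and then 3.28 to 5.87.

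POL30 (YBR088C, chrII:424990-425766), the sliding clamp PCNA that holds polymerases on DNA, stood at 99.3 and 98.1 FPKM in U and 92.2 and 105 in S at 6 h. At 12 h it stood at 23.3 and 45.1 in U and 16.5 and 31.9 in S. The times did not overlap, and as for RNR1 the second replicate was the higher at 12 h in both strains. The log2 fold change was -1.57 in U (SE 0.385, limma adjusted p = 0.0145) and -2.05 in S (SE 0.385, limma adjusted p = 0.00542). The call in S held in all 8 fits that left out 1 library. The call in U was lost without U 6 h replicate 1 (limma adjusted p = 0.053), U 6 h replicate 2 (0.0593) or U 12 h replicate 1 (0.0776), and when both 6 h libraries of number 1 were omitted (0.0764). The table holds a second row under the name POL30, YBR089W, with log2 fold changes of -1.71 in U and -1.99 in S. RefSeq R64 does not annotate that ID either, and how reads were divided between the rows is unknown.

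Of the 5 subunits of replication factor C, the loader that opens the clamp, 4 fell in both strains. That was 80.0%, beside 21.7% of all rows in U and 22.9% in S. RFC3, a subunit of every clamp loader of this family, was at 105 to 121 FPKM in the 6 h libraries and 54.1 to 70.5 in the 12 h libraries, with log2 fold changes of -0.84 in U and -0.89 in S (limma adjusted p = 0.00854 and 0.00677). RFC5 changed by -0.72 and -0.89, RFC4 by -0.55 and -0.61, and RFC1, the subunit found in the replicative loader alone, by -0.69 and -0.64 (limma adjusted p = 0.00556 and 0.00706). RFC2 was at 127 to 145 FPKM at 6 h and 117 to 124 at 12 h, with -0.11 and -0.18, which did not pass the test. Subunits of 1 complex thus spread from 51.3 (RFC1) to 134 FPKM (RFC2) as means of the 6 h libraries and from 32.0 to 121 at 12 h. Without U 12 h replicate 1 the calls of RFC3, RFC4 and RFC5 in U were lost, and without S 12 h replicate 1 those of RFC1, RFC4 and RFC5 in S. RFC4 also lost its call without either 6 h library of the strain compared, and RFC5 in U without U 6 h replicate 1.

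RAD27, the flap endonuclease that trims Okazaki fragments, stood at 96.0 to 99.9 FPKM in all 4 libraries at 6 h, and at 48.1 and 68.3 in U and 51.3 and 59.9 in S at 12 h. Its 6 h libraries were close together and all above those of 12 h. The log2 fold changes were -0.75 in U and -0.83 in S (limma adjusted p = 0.017 and 0.012). The call in U was lost without U 6 h replicate 1, U 6 h replicate 2 or U 12 h replicate 1, that in S without S 12 h replicate 1, and both without the 6 h libraries of number 1. CDC9, the ligase that seals the fragments, had -0.12 and -0.24, and did not pass. The 3 subunits of the single-strand binding protein RPA did not pass either. RFA2 had -0.60 and -0.49 (limma adjusted p = 0.0547 and 0.0971), RFA1 0.19 and 0.23, and RFA3, the smallest subunit, 0.55 and 0.45. RFA3 was at 332 to 430 FPKM at 6 h and 452 to 661 at 12 h, against 34.3 to 63.7 and 49.8 to 63.4 for RFA1.

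Of the 6 origin recognition genes 2 fell in U (33.3%, beside 21.7% of all rows) and 4 in S (66.7%, beside 22.9%). ORC2 stood at 32.0 and 33.2 FPKM in U and 30.1 and 36.6 in S at 6 h, and at 20.1 and 22.3 in U and 19.3 and 21.0 in S at 12 h. ORC3 stood at 23.5 and 26.9 in U and 28.3 and 25.9 in S at 6 h, and at 15.03 and 18.1 in U and 16.4 and 15.1 in S at 12 h. For both genes every 12 h library lay below every 6 h library. The log2 fold changes were -0.60 and -0.69 for ORC2 (limma adjusted p = 0.0168 in U and 0.00987 in S) and -0.58 and -0.75 for ORC3 (0.023 and 0.00895). ORC1, the ATPase of the complex, changed by -0.38 and -0.57 (limma adjusted p = 0.082 and 0.0231), and ORC5 by -0.58 and -0.62 (0.059 and 0.0453). ORC4 (0.27 and 0.07) and ORC6 (0.26 and 0.26) did not pass the test. In U the call of ORC2 was lost without U 6 h replicate 1, U 6 h replicate 2 or U 12 h replicate 1, and that of ORC3 without U 6 h replicate 2 or U 12 h replicate 1. In S that of ORC2 was lost without S 12 h replicate 1, that of ORC3 without S 12 h replicate 2, that of ORC1 without S 6 h replicate 1, S 6 h replicate 2 or S 12 h replicate 1, and that of ORC5 in 7 of the 8 fits.

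Of the 8 genes for the helicase and its loading 12.5% fell in each strain, beside 21.7% of all rows in U and 22.9% in S. In this group MCM6, a subunit of the ring, alone passed the test. It stood at 26.6 and 27.6 FPKM in U and 28.0 and 27.7 in S at 6 h, and at 16.9 and 21.6 in U and 17.9 and 19.8 in S at 12 h, with no overlap between the times. Its log2 fold changes of -0.48 and -0.54 (limma adjusted p = 0.0441 and 0.0304) were among the smallest called, and held in 1 of 8 fits in U and 2 of 8 in S when 1 library was left out. MCM2 stood at 18.6 and 19.3 FPKM in U and 19.1 and 19.4 in S at 6 h, and at 12.8 and 17.1 in U and 12.4 and 16.9 in S at 12 h. The MCM2 libraries of the 2 times did not overlap, but its changes of -0.34 and -0.39 did not pass (limma adjusted p = 0.214 and 0.16). Under 20 other settings of the fit MCM2 was called in 2 in U and 3 in S. Its values there ran from -0.815 to -0.141 in U and from -0.814 to -0.178 in S. The other 4 ring genes lay between -0.16 and 0.29. The levels of the 6 ring genes per length ran from 19.1 FPKM (MCM2) to 37.8 (MCM5) as means of the 6 h libraries and from 14.8 (MCM2) to 41.0 (MCM4) at 12 h.

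CDC6, the loading factor, differed between the replicates at 6 h and did not pass the test. It stood at 8.74 and 15.6 FPKM in U and 8.24 and 15.7 in S at 6 h, and at 11.0 and 12.7 in U and 8.0 and 10.4 in S at 12 h. At 6 h replicate 2 was the higher in both strains, and the times overlapped. The log2 fold change was 0.01 in U and -0.29 in S (limma adjusted p = 0.978 and 0.527), and the value in U turned to -0.22 after median-of-ratios scaling and to -0.59 after quantile normalization.

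None of the 9 genes of helicase activation passed the test in either strain, with lowest adjusted p = 0.0714 in U and 0.114 in S by limma. Of all rows 55.3% passed in U and 56.1% in S. CLB5, the main S-phase cyclin, stood at 27.2 and 31.2 FPKM in U and 27.2 and 27.8 in S at 6 h, and at 31.9 and 39.7 in U and 31.7 and 39.7 in S at 12 h. The 12 h libraries were the higher in both strains, by 0.28 and 0.36 (limma adjusted p = 0.225 and 0.135), and the value in U was -0.06 after quantile normalization. Under 20 other settings of the fit CLB5 was called in 1 in each strain. Its values there ran from -0.06 to 0.43 in U and from 0.05 to 0.51 in S. CLB6, its early-acting relative, stood at 14.6 and 8.02 FPKM in U and 14.2 and 5.69 in S at 6 h, and at 3.28 and 8.24 in U and 5.16 and 6.42 in S at 12 h. The times overlapped, since replicate 2 at 6 h was within the range of 12 h, and the changes of -0.91 and -0.58 did not pass (limma adjusted p = 0.194 and 0.393). The value in S was 0.02 when both 6 h libraries of number 1 were left out. Under 19 other settings CLB6 was called in 2 in U, where values ran from -1.54 to -0.36, and in 0 in S. Of the 4 GINS genes, PSF3 had 0.57 and 0.39, SLD5 -0.41 and -0.27, PSF1 -0.25 and -0.25, and PSF2 -0.12 and 0.04.

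Of the 6 genes for polymerases and primase 16.7% fell in each strain, beside 21.7% of all rows in U and 22.9% in S. PRI1, the catalytic subunit of primase, alone passed among them. It stood at 50.0 and 55.5 FPKM in U and 55.1 and 51.5 in S at 6 h, and at 34.6 and 39.0 in U and 40.9 and 34.9 in S at 12 h. The times did not overlap, with log2 fold changes of -0.51 and -0.48 (limma adjusted p = 0.0267 and 0.0318). The call was lost in 4 of 8 fits in U and 6 of 8 in S when 1 library was left out. The catalytic subunits of polymerases alpha (POL1, 0.15 and -0.03), epsilon (POL2, 0.54 and 0.48) and delta (POL3, 0.20 and 0.11) did not pass the test. The 12 h libraries of POL2 and POL3 were above those of 6 h in both strains.

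Genes with and without an MCB box were among those that changed. Of the 19 genes with a box, 4 fell in each strain (RNR1, POL30, RAD27 and RFC4) and RNR3 rose, while of the 25 without a box 7 fell in U and 9 in S. The shares that fell were thus 21.1% in each strain with a box and 28.0% in U and 36.0% in S without one, beside 21.7% and 22.9% of all rows, and the difference between the shares was not tested. The median log2 fold changes were 0.01 in U and -0.07 in S with a box and -0.25 in each strain without one. Among the genes with 2 boxes in the sequences shown, POL1, RFA1, CDC45 (-0.60 and -0.59), CLB6, POL12 (0.19 and 0.05) and RFA2 did not pass the test.

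The comparisons of the strains ask whether the form of Gcr1 goes with a difference in these transcripts. At 6 h, at 12 h and in the difference of the time changes, limma called 0 of the 44 genes, and 0 had an unadjusted p under 0.05. Same-numbered libraries of U and S deviated together over these genes (r = 0.92 at 6 h and 0.79 at 12 h). The fit left them unpaired, so this shared deviation widened its spread and the intervals below. With a replicate block 0 were called as well. Over all rows limma called 5 at 6 h (0.0789%), 8 at 12 h (0.126%) and 5 for the difference (0.0789%), and an unadjusted p under 0.05 was found for 0.883%, 0.962% and 0.805% of rows. The strains' libraries did not overlap for 5 of 44 genes at 6 h (11.4%, against 10.7% of all rows) and for 5 at 12 h (11.4%, against 20.6%). At 6 h these were MCM6, MCM10 and RNR4, higher in S, and MCM5 and PSF1, lower; at 12 h they were RFC1, higher in S, and ORC4, CDC6, POL3 and RNR3, lower.

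The log2 fold changes of S against U lay between -0.23 (CLB6) and 0.24 (MCM10) at 6 h and between -0.48 (POL30) and 0.16 (RNR2) at 12 h. The 95% interval of a gene had a median half-width of 0.479 at each time. It lay within 1 of 0 for 39 of 44 genes at 6 h and 38 at 12 h, while differences smaller than the half-width could not be told from 0. For RNR1 the interval ran from -1.09 to 0.82 at 6 h and from -1.23 to 0.67 at 12 h, and for POL30 at 12 h from -1.41 to 0.45. The median over the 44 genes was 0.01 at 6 h and -0.07 at 12 h, and 36 of 44 genes lay below 0 at 12 h, as did 4194 of 6339 rows with a median of -0.04. The median of the 44 genes at 12 h turned to 0.07 without U 12 h replicate 2 and 0.03 without S 12 h replicate 1. The strains' time changes differed most for POL30 (-0.48, interval -1.79 to 0.84).

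**Figure D4:**
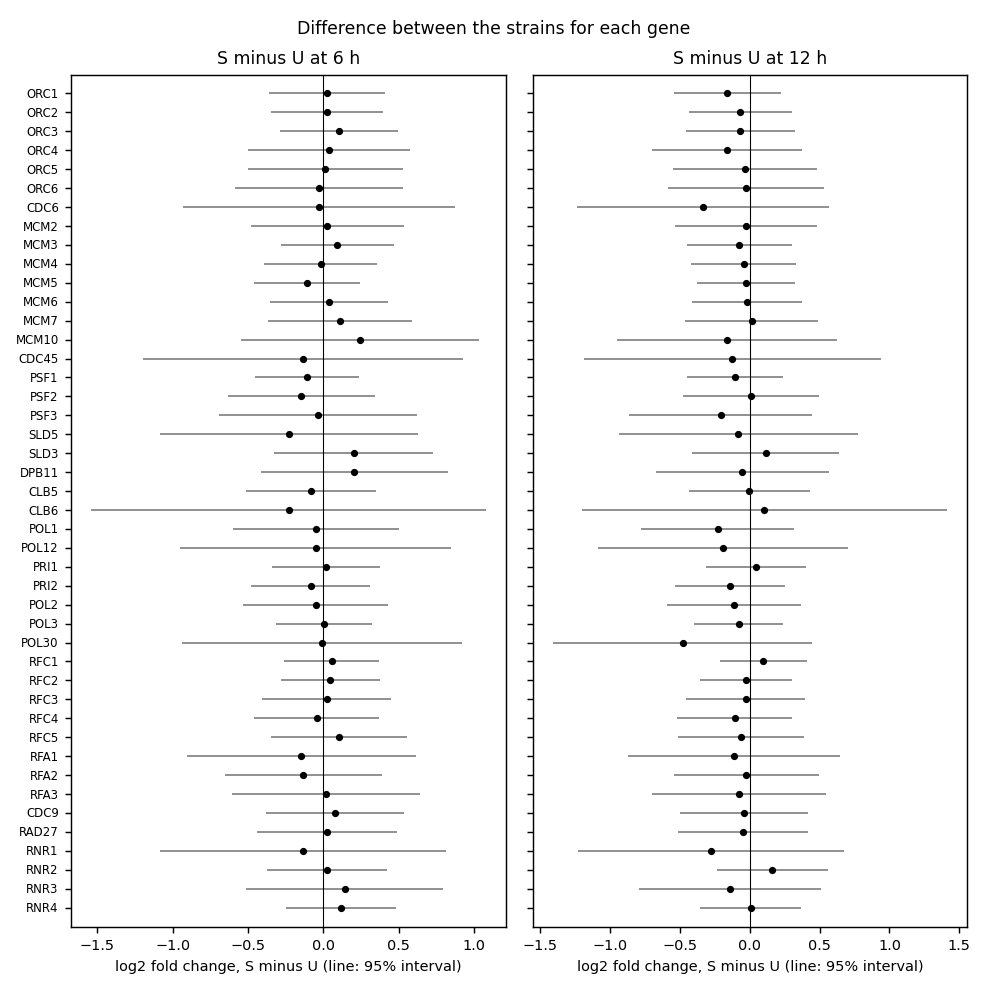
Log2 fold change of strain S against strain U, on the log2(FPKM + 1) scale, for each of the 44 genes at 6 h (left) and 12 h (right), with 95% intervals from the fit. Each interval spans 0; the points lie between -0.23 and 0.24 at 6 h and between -0.48 and 0.16 at 12 h.

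The difference between replicates had the same sign in the 2 strains for 81.8% of these genes at 6 h and 88.6% at 12 h, and for 78.2% and 75.1% of all rows. At 6 h 20 of 44 genes were higher in replicate 1 in both strains, 16 higher in replicate 2 in both and 8 split. These shares of 45.5% and 36.4% were close to the 46.4% and 31.8% of all rows. The differences between replicates 1 and 2 were 0.79 in U and 1.19 in S for CLB6, 0.74 and 0.92 for POL12, the B subunit of polymerase alpha, and 0.46 and 0.87 for RFA1. They were -0.77 and -0.86 for CDC6 and -0.54 and -0.53 for DPB11, which joins helicase and polymerase. At 12 h 34 of 44 genes were higher in replicate 2 in both strains and 5 in replicate 1, shares of 77.3% and 11.4%, where 42.1% and 32.9% of all rows were. The values at 12 h were -1.07 and -0.78 for RNR1, -0.92 and -0.91 for POL30 and -0.98 and -0.86 for CDC45, while MCM10 had 0.84 and 0.55. 17 genes were higher in replicate 1 at 6 h and in replicate 2 at 12 h in both strains. The numbers did not link libraries of different times (r = 0.01 to 0.08 over all rows). The share of all rows was not counted, so nothing is read from this count. At 6 h replicate 1 was the higher in both strains for 13 of 19 genes with an MCB box and 7 of 25 without one, and replicate 2 for 3 and 13. These were 68.4% and 28.0% for replicate 1 and 15.8% and 52.0% for replicate 2, beside 46.4% and 31.8% of all rows. At 12 h replicate 2 was the higher for 15 of 19 with a box and 19 of 25 without one, and replicate 1 for 2 and 3. These were 78.9% and 76.0% for replicate 2 and 10.5% and 12.0% for replicate 1, beside 42.1% and 32.9% of all rows. The difference between genes with and without a box was not tested at either time.

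**Figure D5:**
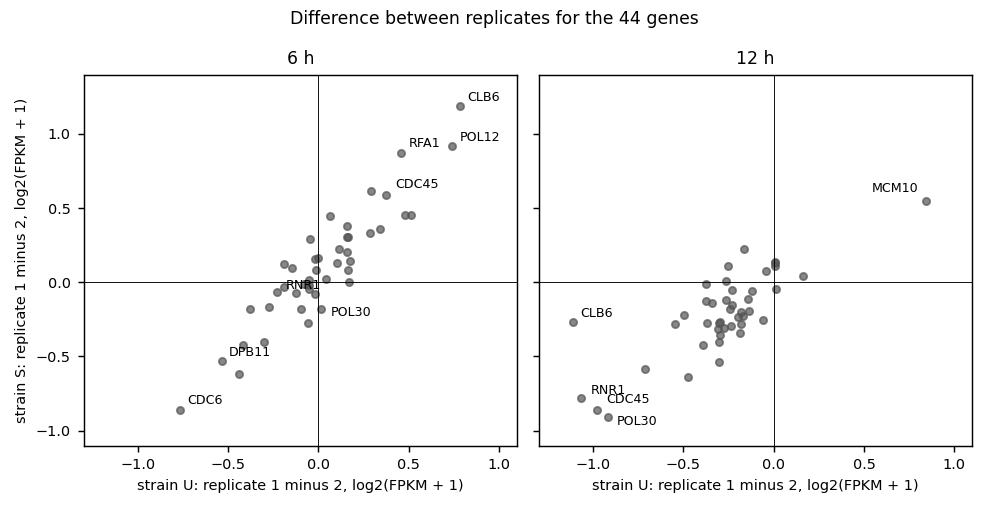
Difference between replicates 1 and 2 of a group, in log2(FPKM + 1), for the 44 genes, with strain U on the horizontal and strain S on the vertical axis, at 6 h (left) and 12 h (right). At 6 h the points lie on both sides of 0 along the diagonal, from CDC6 (-0.77 and -0.86) to CLB6 (0.79 and 1.19); at 12 h 34 of 44 lie below 0 in both strains.

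Genes around the replication machinery were counted from lists, to be read beside the 21.7% of all rows that fell and 33.5% that rose in U and the 22.9% and 33.2% in S. Of 13 regulators of ribonucleotide reductase and other enzymes of deoxynucleotide supply, 5 fell (38.5%) and 3 rose (23.1%) in U, and 5 fell (38.5%) and 2 rose (15.4%) in S. DIF1, which brings the small subunits into the nucleus, changed by -2.32 and -1.89, and HUG1, a small inhibitor of the enzyme, by -2.04 and -1.22. DCD1, the dCMP deaminase, changed by -1.75 and -1.76, and DUT1, the dUTPase, by -1.60 and -1.67. WTM1, which anchors the small subunits in the nucleus, rose by 1.61 in both strains, and SML1, which encodes an inhibitor of Rnr1, by 0.86 and 0.79. WTM1 was at 445 and 504 FPKM in replicate 1 and 229 and 213 in replicate 2 of U and S at 6 h, and its call was lost in each strain in 3 of 8 fits with 1 library omitted.

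Of 20 other fork, polymerase and topoisomerase genes, 3 fell and 5 rose in U, and 3 fell and 3 rose in S, all below the shares of all rows. DPB2, the second subunit of polymerase epsilon, fell by 1.27 in U and by 1.53 in S. POL32, of polymerase delta, fell by 1.09 and 1.15, and the helicase RRM3 by 0.95 and 1.15. DPB3, of polymerase epsilon as well, rose by 0.75 and 0.95 (limma adjusted p = 0.0202 and 0.0086), and its subunit gene DPB4 did not pass. DCC1, of an alternative clamp loader, rose by 1.08 and 1.14. ECO1, the cohesin acetyltransferase, rose in U (1.05, limma adjusted p = 0.0418) with 0.85 in S, which did not pass (limma adjusted p = 0.0789). With 1 library left out ECO1 in U ran from 0.75 to 1.34, and its call was lost in some of these fits. Of 9 other initiation factors 0 passed in U and CKS1 fell in S (-0.73, limma adjusted p = 0.0463), where its call held in 2 of 8 fits. Of 10 checkpoint genes 2 rose in U and 3 in S, also below the shares of all rows. They were MEC1, the checkpoint kinase (1.08 and 0.98), RAD24 (0.81 and 0.65) and, in S, MEC3 (0.57).

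Of 6 regulators of G1/S transcription, 3 fell in each strain (50.0%) and 0 rose. NRM1, a corepressor of MBF, fell by 2.13 in U and by 2.15 in S. WHI5, a repressor of SBF, fell by 0.77 and 0.74, and SWI6, the shared subunit of both factors, by 0.54 and 0.63. With 1 library left out NRM1 ran from -2.74 to -1.52 in U and from -2.63 to -1.68 in S. In some of these fits the calls of NRM1, WHI5 and SWI6 were lost in each strain. Of the 8 core histone genes, which are transcribed in S phase, 6 fell in each strain (75.0%), with medians of -1.18 and -1.24, against -0.14 and -0.21 for the 44 genes. HTB2 changed by -3.13 and -3.50 and HTA2 by -2.68 and -3.03, followed by HHF2 (-1.81 and -1.92) and HHF1 (-1.40 and -1.46), while HTA1 (-0.19 and -0.47) and HTB1 (-0.54 and -0.63) did not pass the test. In the comparisons of the strains 0 genes of these lists were called.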

How the data were processed

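RNA of 8 libraries was read by paired-end sequencing with 100 cycles from a stranded mRNA kit, per the labels' protocols. The authors deposited FPKM values, and per the submitters' processing notes TopHat2 2.1.1 and Cufflinks were used with sacCer3, besides bcl2fastq 1.8.2 and FastQC 0.10.1. The annotation, the settings of Cufflinks and the use of strand are unknown: they were not given in the sources used here. Rows were matched to RefSeq R64 by systematic ID, since some table names are repeated, and 6048 of 7126 matched. Values were analysed as log2(FPKM + 1) for 6339 rows that averaged at least 1 FPKM, without further scaling, in 1 limma 3.58.1 fit (R 4.3.3; eBayes with trend) to the 4 groups, which share the spread (residual degrees of freedom 4, prior 2.33). All tests were two-sided, with Benjamini-Hochberg adjustment over all rows of a comparison and calls at an adjusted p under 0.05. FPKM keep no read depth, so no counting interval is given. The procedure was tested on simulated data in which libraries varied independently and few genes changed. Same-numbered libraries deviated together in the real data, so the simulation does not give the error rate here. Figures and tables used Python 3.11.15.

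The 44 genes, the other lists and the motifs were chosen with earlier results of these data known. Values in every library are given for genes called that are extreme in their role group, the 4 RNR genes, POL30, CLB5, CLB6, CDC6 and MCM2. Up to 4 called genes of the largest change per comparison are named from each other list. Library values or ranges of RFC2, RFC3, RFA1, RFA3, RAD27 and WTM1 were chosen after their values were seen. So were values of SML1, DPB3, HTA1 and HTB1, the naming of DPB4 and the genes named for replicates. Alternatives were pseudocounts of 0.1 and 5, no filter, a mean of at least 10 FPKM, median-of-ratios scaling, quantile normalization, 2 replicate blocks, no trend, the groups compared alone, no rows listed at 0, each library left out, and, added later, both 6 h libraries of number 1 left out.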

Additional observations from a re-analysis of the deposited data

How the results depend on the processing

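Of the counts of the 44 genes, those between the strains stayed at 0 under every setting run. The difference of the time changes has no fit to the groups compared alone. For the counts over time, shares of all rows are given for the scalings and the block within each time alone. Moves under other settings are not read as particular to these genes. The count in U went from 12 to 19 with median-of-ratios scaling and to 21 with quantile normalization, each with all 12 main genes, and with the groups compared alone the count went from 12 to 8 in U and from 14 to 8 in S. When 1 library was left out it ran from 3 to 13 in U and from 5 to 12 in S. The median went to -0.38 in U and -0.42 in S with median-of-ratios scaling and to -0.41 and -0.46 with quantile normalization, as all rows moved with it. Between the strains at 12 h it was -0.0651, and -0.0291 with median-of-ratios scaling and -0.0152 with quantile normalization. For the difference of the time changes it was -0.0736, and -0.0397 with median-of-ratios scaling, -0.0282 with quantile normalization and -0.0504 without both 6 h libraries of number 1. With 1 library left out the medians ran from -0.0527 to 0.0527 between the strains at 6 h, -0.192 to 0.0685 at 12 h and -0.205 to 0.0613 for the difference.

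No pairing is given by the labels: same-numbered libraries of 1 time deviated together (r = 0.64 at 6 h and 0.38 at 12 h, across 6339 rows), and those of different times did not (0.01 to 0.08). With a replicate block over both times 14 genes passed in U and 15 in S, and the share of all rows is not given here. With a replicate block within each time 29 passed in U (10 higher, 19 lower) and 27 in S (8 higher, 19 lower), where 76.4% and 76.0% of all rows passed. Both blocks kept all genes of the main counts and left 0 genes called between the strains. The block within each time takes out the deviation that same-numbered libraries share. Its comparisons of 12 h with 6 h are not judged against that spread, so the calls kept there do not back the main counts.

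Of the genes named, values that changed sign did not pass the test. CDC6 in U was -0.37 without both 6 h libraries of number 1, -0.22 with median-of-ratios scaling and -0.59 with quantile normalization. CLB5 in U was -0.0636 with quantile normalization, and CLB6 in S 0.0152, RNR3 between the strains at 6 h -0.016 and POL30 there 0.0926 without both 6 h libraries of number 1. With 1 library left out, CDC6 ran from -0.37 to 0.40 in U and -0.72 to 0.13 in S, and CLB6 in S from -1.17 to 0.0152. Between the strains at 6 h, CLB6 ran from -0.82 to 0.36, RNR3 from -0.16 to 0.45 and POL30 from -0.10 to 0.0841. At 12 h RNR2 ran from -0.0252 to 0.35 and RNR1 from -0.81 to 0.25. For the difference CLB6 ran from -0.26 to 0.93, RNR1 from -0.68 to 0.39 and RNR3 from -0.59 to 0.0206. The cause was not tested.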

Other observations

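The row YJL026C-A, which the table also names RNR2, stood at 444 and 490 FPKM in U and 475 and 435 in S at 6 h, and at 281 and 366 in U and 356 and 354 in S at 12 h. It fell in U by 0.54 on the log2 scale (limma adjusted p = 0.039), while its value of -0.35 in S did not pass the test (limma adjusted p = 0.131). YBR089W, the second row named POL30, stood at 274 and 258 FPKM in U and 260 and 259 in S at 6 h, and at 54.6 and 119 in U and 47.9 and 87.3 in S at 12 h. For both rows replicate 2 was the higher in U at 12 h.

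Of 8 markers of sporulation and meiosis, a state that haploid cells do not normally enter, 4 rose in each strain (50.0%), where 33.5% of all rows rose in U and 33.2% in S. REC8, a meiotic cohesin subunit, had 2.79 and 2.50 and NDT80, a meiotic activator, 1.22 and 1.19 as log2 fold changes in U and S. SPO11 had 1.05 and 0.85 and SMK1 0.67 and 0.82. Their summed level stayed low, from 74.2 to 79.4 FPKM in the 6 h libraries and from 121 to 152 in the 12 h libraries, and 0 of the 8 were listed at 0.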
